A study of Mus musculus with 3 samples.

Results

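The genes described here encode nuclear subunits of the mitochondrial respiratory chain and of ATP synthase. They were chosen by gene symbol alone (Nduf subunit names, Sdha to Sdhd, Uqcr names, Cox5 to Cox8 subunit names and Atp5 names), which gave 83 of the 24346 genes listed. By name 38 belong to complex I, 4 to complex II, 8 to complex III, 16 to complex IV and 17 to ATP synthase. Cox4i1, Cox4i2 and Cyc1, also chain subunits, fall outside these names and are given with the related genes further on.

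RNA sequencing was performed on epithelial cells shaken off the mouse large intestine, upper small intestine and lower small intestine with EDTA, with 1 library per region. The labels give no age, treatment or genotype, and do not say how many animals were pooled. Only the label of the upper small intestine has a strain field, filled with the name MC38 and the words for a colorectal cancer model. Should that field hold, the strain and the region of the upper library cannot be told apart. With 1 library per region no difference below has a replicate check and no p-value was computed.

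The respiratory chain passes electrons from NADH (complex I) and succinate (complex II) through ubiquinone, complex III and cytochrome c to oxygen at complex IV. Complexes I, III and IV pump protons, and ATP synthase uses the gradient to make ATP. Absorptive enterocytes spend ATP on driving nutrient uptake, and colonocytes are known for oxidising butyrate made by bacteria. Most subunits come from nuclear genes, and a few come from mitochondrial DNA, whose transcripts were not analysed here. NRF-1, ETS factors of the GABP type and ERR receptors are textbook regulators of these nuclear genes.

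Since most of these genes differed in the same direction between the small intestinal libraries, their promoters were searched on both strands of the 250 bases before the RefSeq start (GRCm38.p6). Of the 83 genes, 70 had a promoter entry. The NRF-1 letters, GCGCA then any base then GCGC, were found in 12 of the 70 (17.1%) and in 5.3% of 17491 protein-coding promoters of the same length. The ETS letters CCGGAAG were found in 11 (15.7%) and 9.12%, the ERR letters TNAAGGTCA in 2 (2.86%) and 0.972%, and the YY1 letters ATGGCG in 7 (10%) and 6.47%. In 0 of the 70 promoters did matches of different motifs overlap. A match describes the letters and is not a site shown to be bound. Shown with the NRF-1 letters in capitals are the most abundant genes of complex I, complex IV and ATP synthase whose match lies outside annotated exons. They come from chr16:37654525-37654584, chr5:115349086-115349129 and chr11:115420026-115420085, all on the minus strand.
Ndufb4: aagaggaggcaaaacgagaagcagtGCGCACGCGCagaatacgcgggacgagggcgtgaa
Cox6a1: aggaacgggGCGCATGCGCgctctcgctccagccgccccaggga
Atp5h: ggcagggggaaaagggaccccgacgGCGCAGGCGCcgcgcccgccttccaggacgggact
Cox7a1 and Ndufa4, the members with the largest well-measured differences between libraries, held none of the 4 motifs in their 250 bases, which says only that these letters are not in that window. Ndufa1, with a difference of 1.22 on the log2(FPKM + 1) scale for large against lower, held the YY1 letters. Stretches of 120 bases of Cox7a1 and Ndufa4 are shown so that they can be set beside the others. They come from chr7:30184024-30184143 (plus strand) and chr6:11907498-11907617 (minus strand).
Cox7a1: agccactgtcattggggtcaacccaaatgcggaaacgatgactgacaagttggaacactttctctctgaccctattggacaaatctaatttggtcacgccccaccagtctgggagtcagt
Ndufa4: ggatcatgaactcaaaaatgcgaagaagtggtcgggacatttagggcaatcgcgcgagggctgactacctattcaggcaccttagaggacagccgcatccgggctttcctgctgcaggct
Members with and without the NRF-1 letters had like differences between the upper and lower small intestine, with medians of 0.40 over 12 members and 0.38 over 56 on the log2(FPKM + 1) scale. For large against lower the medians were 0.14 over 12 and 0.20 over 57, and for large against upper -0.30 over 11 and -0.17 over 57, and no test was made of them.

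Levels are in FPKM, a fragment count scaled to transcript length and library size, and differences are of log2(FPKM + 1) between 2 libraries. Genes counted as measured reached 1 FPKM in at least 1 library of the comparison, and calling by size needed a difference of 1 on this scale, or 2-fold. Ratios are of FPKM, and their brackets are 95% Clopper-Pearson intervals from the reads that the spacing of low values implies. They cover counting error alone, and reads counted with no molecular identifier need not be independent molecules. The implied totals were about 9049770 reads in the large, 7874020 in the upper and 11764700 in the lower intestine, and would be off if the values had been brought to a common scale. Epithelial markers, 8 of 8, were at 1 FPKM or more in every library. The large intestinal markers Hoxb13, Hoxa13 and Hoxd13 were listed at 0 in both small intestinal libraries, and the lower markers Slc10a2, Fabp6 and Fgf15 were all under 1 FPKM in the upper library. In the large library, however, Slc10a2 was at 24.2 and Fabp6 at 38.3 FPKM. The upper markers Gata4, Lct and Gip were at 58.3, 356 and 151 FPKM in the upper and 16.1, 33.4 and 21.2 in the lower library. Each of these markers was highest in the library labelled with its region.

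Of the 83 genes, 80 reached 1 FPKM in some library, and the other 3 were Ndufa4l2, Cox7b2 and Cox8c. The median level of the 80 was 234.9 FPKM in the large, 269.8 in the upper and 201 in the lower intestine. Together the 83 genes held 5.16% of the summed FPKM of the large, 4.48% of the upper and 3.60% of the lower library. ATP synthase genes had the highest median level of the 5 groups, 479 FPKM in the large, 645 in the upper and 498 in the lower intestine. Complex I genes had the lowest, with 149.8 FPKM in the large, 161 in the upper and 135 in the lower intestine. These mRNAs are short, 40 of the 83 having a shortest transcript under 600 nt, so levels of different genes depend on the length correction behind FPKM more than ratios between libraries do.

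**Figure D1:**
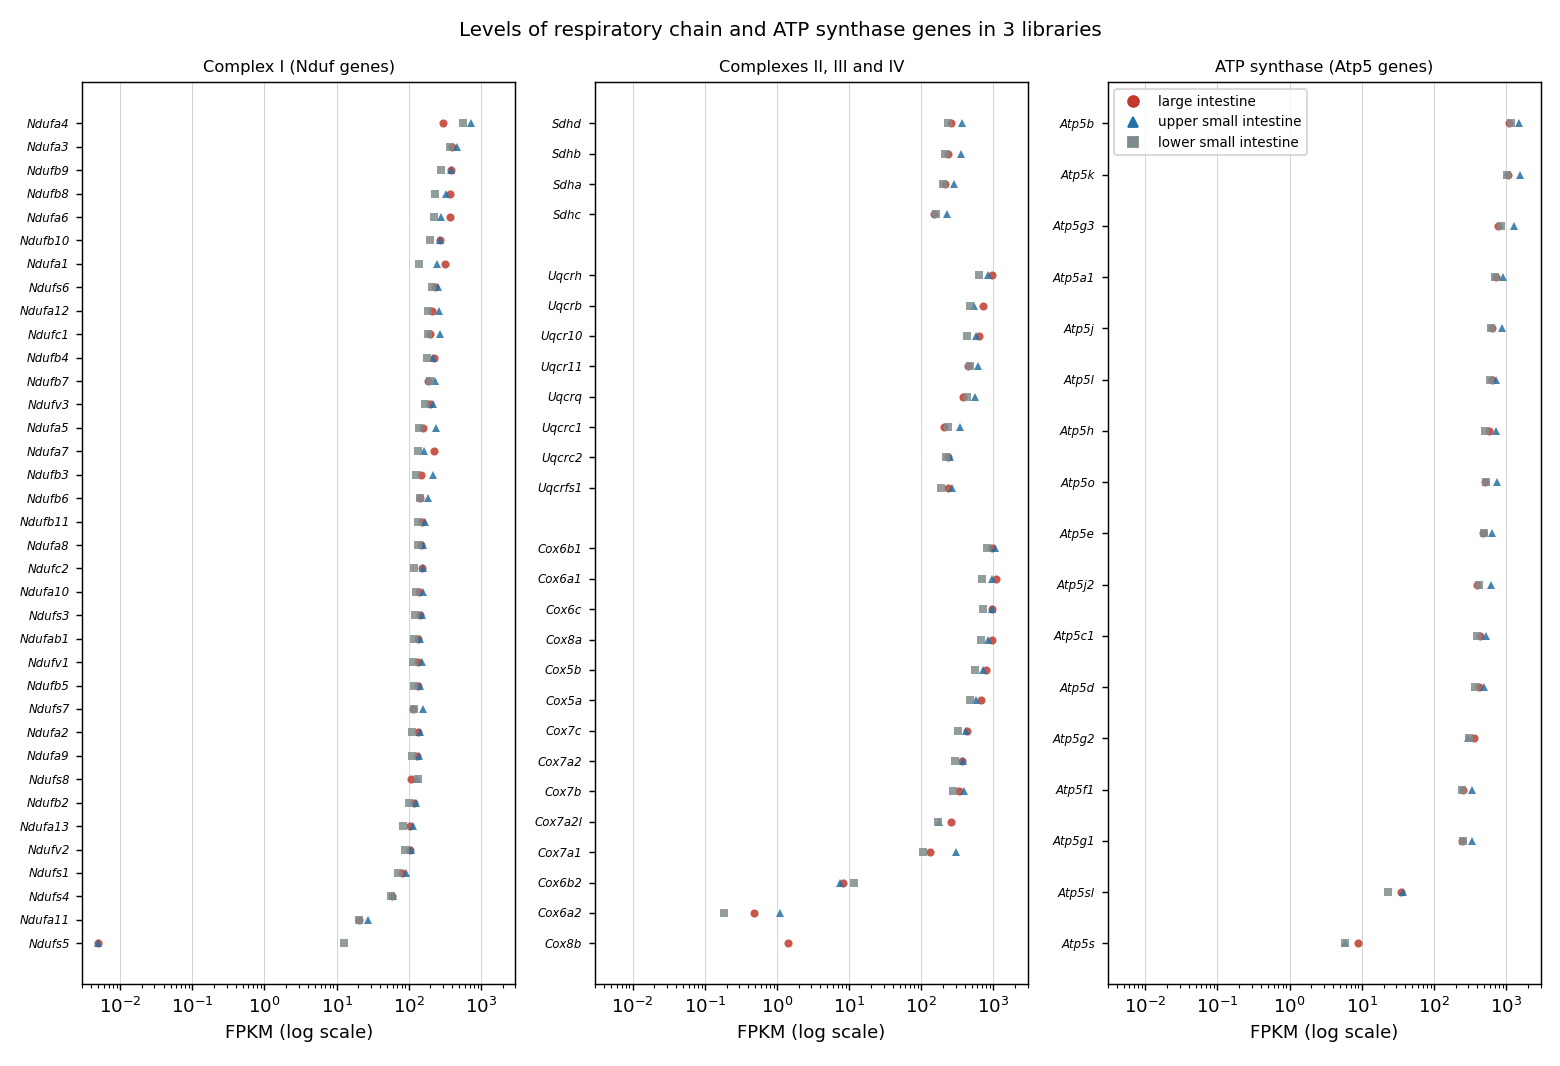
Each row is 1 gene with at least 1 FPKM in some library, 79 of the 80 being drawn, ordered within each complex by mean level, and points give FPKM on a log axis in the large (circle), upper (triangle) and lower (square) library. Values of 0 are not drawn (Cox8b in both small intestinal libraries). The upper library held the highest point for 58 of 80 genes as deposited, a number that was 21 with libraries rescaled to the same sum, and Ndufs5 stands apart at 0.005 FPKM in 2 libraries.

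One order across the gut was frequent among these genes. The upper small intestine held the highest level of 58 of the 80 genes, against 29.4% of all 12579 genes measured anywhere. The lower small intestine held the lowest level of 60 of them, against 24.2% of all genes. The large intestine was highest for 19, against 41.3% of all genes. The order upper, large, lower was seen for 44 genes, large, upper, lower for 17 and upper, lower, large for 14. The shares of all genes with each order are not given here. The place of the large intestine in this order depends on scaling. Rescaling to the same sum of FPKM moved differences between the large and upper libraries by about 0.41 and between the large and lower libraries by about 0.31, both toward the large intestine, and made the large intestine highest for 55 genes and the upper for 21. With short RNA genes and the 20 most abundant genes left out of that sum, the large intestine was highest for 33 genes and the upper for 44. Of all genes 50% stood higher in the large than in the upper library as deposited. That share was 72.7% after the first rescaling and 57.6% after the second. A gene that stood higher in the upper than in the large library by less than 0.41 as deposited therefore changes side, and orders of the large and upper libraries below are as deposited unless scaling is mentioned.

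The upper small intestine was compared with the lower first, since their difference was the most uniform. Of 79 measured genes, 74 were higher in the upper library at any size, against 46.1% of all genes measured, and 5 were lower, against 53.9%. The median difference was 0.38, a ratio near 1.30, with the middle 50% of the genes between 0.30 and 0.49, where all 11941 measured genes had a median of -0.03. The difference was broad but small. At 2-fold, 1 gene was higher (Cox7a1) and 1 lower (Ndufs5), against 3.92% and 2.92% of all genes. At 1.5-fold 8 genes were higher and 2 lower, or 10.1% and 2.53% of the 79, against 8.53% and 7.48% of all genes. For 70 of the 79 the counting interval of the ratio lay above 1, against 20.5% of all genes measured, and for 1 below, against 21.5%. Such intervals narrow with more reads, and 77 of the 79 genes reached 10 FPKM, against 6808 of the 11941 genes measured. Shares of genes by interval, here and in the other comparisons, thus set genes of unlike level side by side. Rescaling to the same sum left 72 of 78 higher with a median of 0.28, against 35.4% of all genes, and without short RNA and top genes 73 of 79 with a median of 0.30, against 37.4%. Genes with a shortest transcript under 600 nt and longer ones had medians of 0.37 and 0.40. The 9 leukocyte markers summed to 68.3 FPKM in the large, 814 in the upper and 1556 in the lower intestine, none of them listed at 0. Most of this was Cd74, which some epithelial cells also express. Without it the other 8 summed to 9.01 FPKM in the large, 97.4 in the upper and 102 in the lower library, and 3 of them were higher and 5 lower in the upper than in the lower. Epithelial markers summed to 7845 FPKM in the large, 6078 in the upper and 8466 in the lower library. In bulk samples fewer cells of a type and less RNA per cell cannot be told apart, and the part of cell composition in the differences of the subunit genes was not tested.

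**Figure D2:**
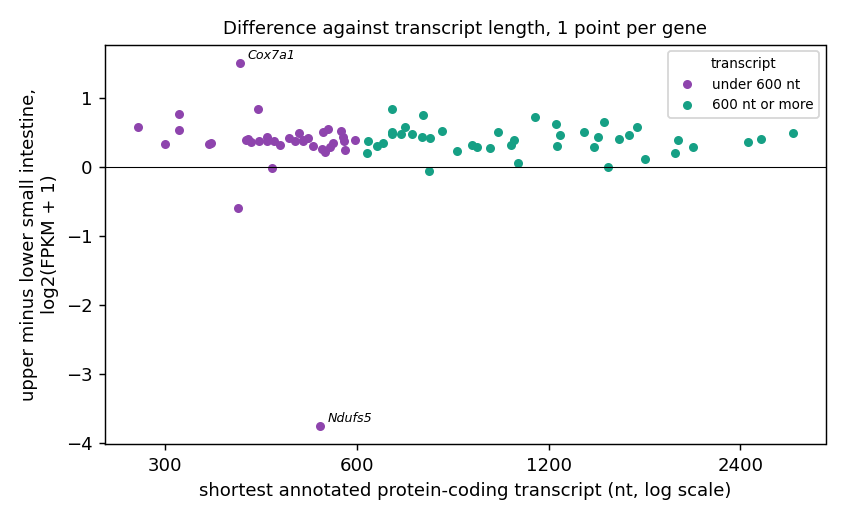
Each point is 1 of the 79 genes measured in the upper or lower small intestine, with its shortest annotated protein-coding transcript in nt on a log x axis and its difference of log2(FPKM + 1), upper minus lower, on the y axis. Genes under 600 nt (median 0.37) and of 600 nt or more (median 0.40) lie at like heights, and only Cox7a1 and Ndufs5 pass 2-fold.

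The sets of genes for cytosolic ribosomal proteins and the proteasome, chosen after their values were seen, did not share this difference between the small intestinal libraries. Of 78 measured genes for cytosolic ribosomal proteins, 5 were higher and 73 lower in the upper library, with a median of -0.16. Of 37 proteasome genes, 5 were higher and 32 lower, with a median of -0.14. The difference was not particular to the subunit genes, since several of the related lists given further on shared it. Tricarboxylic acid cycle and pyruvate entry genes had 18 of 20 higher in the upper library and 2 lower, with a median of 0.37. Chain genes outside the names used here had 7 of 7 higher, with a median of 0.43. Regulators of mitochondrial biogenesis had 8 of 15 higher and 7 lower, with a median of 0.05. Glycolysis genes had 12 of 15 measured higher in the upper library and 3 lower, with a median of 0.54. Carrier and channel genes had 8 of 9 higher and 1 lower, with a median of 0.40. No test of these differences can be made with 1 library per region.

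In the large against the lower small intestine, 62 of 79 genes were higher at any size, against 50% of all genes measured. The median difference was 0.19, a ratio near 1.14. Past 2-fold were 2 genes higher, Ndufa1 and Cox8b, and 1 lower, Ndufs5, against 9.75% and 10.5% of all genes. Past 1.5-fold were 8 higher and 2 lower, against 18.1% and 18.8%, so few subunit genes differed by much. The counting interval lay above 1 for 50 genes, against 31% of all genes, and below 1 for 7, against 32.6%. In the large against the upper small intestine 20 of 79 were higher and 59 lower, against 50% of all genes each way, with a median of -0.18. Past 2-fold were 1 higher, Cox8b, and 2 lower, Ndufa4 and Cox7a1, against 11.2% and 11.7% of all genes. Past 1.5-fold were 1 higher and 8 lower, against 19.6% and 19.8%. The counting interval lay above 1 for 14 genes, against 30.2%, and below 1 for 44, against 31.9%. The direction of this last comparison is not fixed by the data. After rescaling to the same sum, 57 of 78 genes were higher in the large intestine, against 72.7% of all genes, and the median was 0.23, against 0.37 for all genes. All comparisons share libraries, so they are not independent.

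The complexes differed from each other in where the large intestine stood. In the large intestine 12 of 13 complex IV genes stood above the lower library, under every scaling tried, with the largest median of the 5 groups, 0.43. Of all genes 50% stood above it as deposited and 68.9% after rescaling to the same sum. The share was 53.5% when short RNA and top genes were left out of that sum. Against the upper library the complex IV median was 0.06, with 9 of 14 higher, against 50% of all genes. Ndufa4, counted by name under complex I although its product was found in complex IV in human cells, went the other way. Its differences were -0.90 for large against lower and -1.25 for large against upper. Complex II had a median of 0.09 against the lower library, which became 0.39 after rescaling to the same sum. Against the upper it had the lowest median of the 5 groups, -0.55, and all 4 genes were lower in the large intestine under every scaling tried. ATP synthase genes had medians of 0.06 and -0.40, which became 0.37 and 0.01 when libraries were rescaled to the same sum. Complex I had 0.19 and -0.14, and complex III 0.21 and -0.14, and both of the second values turned positive under that rescaling. In the upper against the lower small intestine the 5 medians lay between 0.35 in complex I and 0.57 in complex II.

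**Figure D3:**
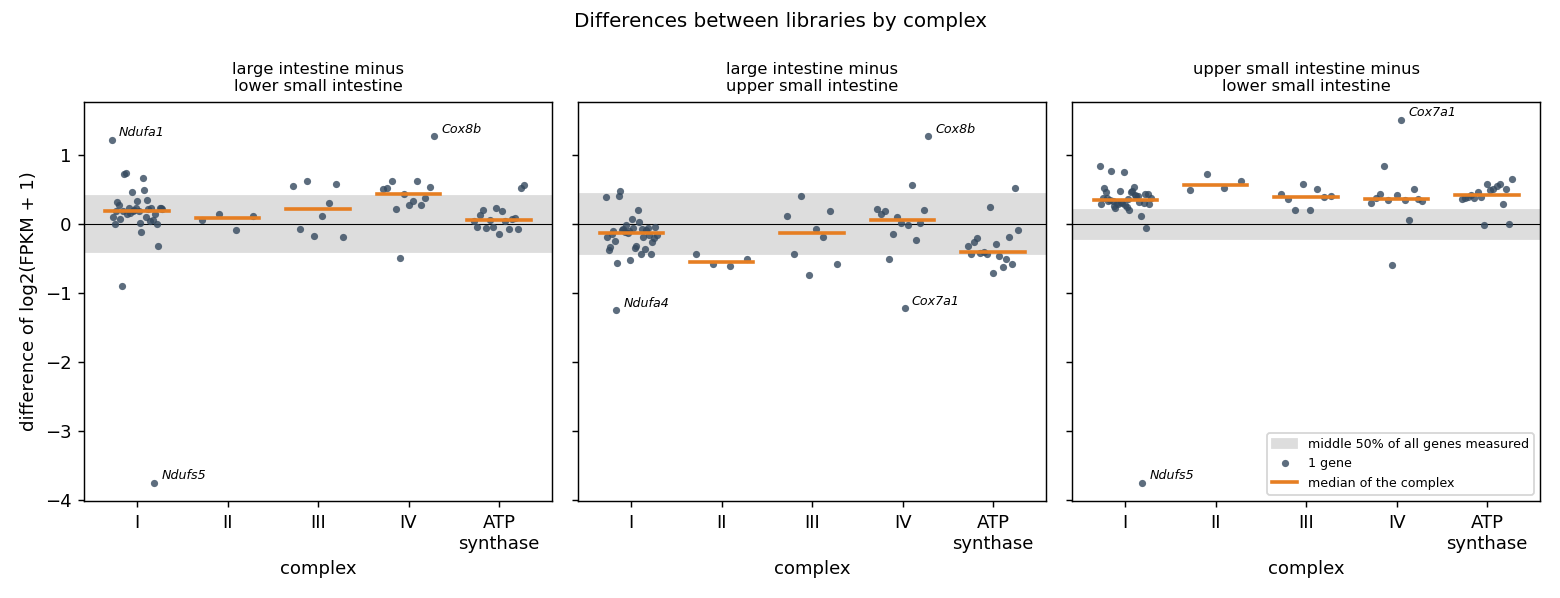
Points are genes, grouped by complex along the x axis, and the y axis is the difference of log2(FPKM + 1) for large minus lower, large minus upper and upper minus lower libraries. Orange lines are medians of each complex and the grey band holds the middle 50% of all genes measured. Upper minus lower medians of all 5 groups lie above the grey band, and named genes pass 2-fold.

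Complex I takes electrons from NADH through a flavin and iron-sulfur clusters. Of its 7 nuclear core genes, a list set after values were seen, 6 were higher in the upper than in the lower library, against 46.1% of all genes. The median of the 7 was 0.40. As deposited all 7 stood lower in the large library against the upper one, where 50% of all genes did, and their median was -0.20. Ndufv1, the NADH-binding subunit, was at 133 FPKM in the large, 153 in the upper and 113 in the lower intestine. Ndufs8, an iron-sulfur core subunit, was an exception at 108 FPKM in the large, 129.6 in the upper and 136 in the lower library. It was highest in the lower small intestine, although the upper to lower ratio of 0.955 (0.861 to 1.06) was within counting error.

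Of 29 accessory genes, leaving out Ndufa4 and Ndufa4l2, 28 were higher in the upper than in the lower library, against 46.1% of all genes. The median of the accessory genes was 0.32. Ndufa1, an X-linked accessory subunit needed for assembly (chromosome X at 37187588 to 37191163, minus strand, mm10), was at 321 FPKM in the large, 245 in the upper and 137 in the lower intestine. The large to lower ratio was 2.34 (2.05 to 2.66), the large to upper ratio 1.31 (1.16 to 1.48) and the upper to lower ratio 1.79 (1.55 to 2.05). All 3 libraries thus differed by more than counting error, with the large intestine highest under every scaling tried. Ndufa7 and Ndufa6, further accessory subunits, were also highest in the large intestine. Ndufa7 was at 225 FPKM in the large, 161 in the upper and 135 in the lower intestine, and Ndufa6 at 372 in the large, 282 in the upper and 225 in the lower. Ndufa5 and Ndufb3 were instead highest in the upper small intestine, also after rescaling to the same sum. Ndufa5 was at 159 FPKM in the large, 236 in the upper and 139 in the lower library, and Ndufb3 at 149.8 in the large, 216 in the upper and 128 in the lower. Ndufb4, whose promoter is shown above, was at 227 FPKM in the large, 216 in the upper and 179 in the lower. For Ndufb4 and Ndufs5, 0 near-identical genes were found in the annotation.

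Leaving aside Ndufs5, Ndufa4 had the most negative difference between the large intestine and either other library. It is named for complex I, but in human cells its product was found to belong to complex IV. It was at 302 FPKM in the large, 720.0 in the upper and 565 in the lower intestine (chromosome 6 at 11900292 to 11907497, minus strand). The large to upper ratio was 0.419 (0.379 to 0.462) and the large to lower ratio 0.535 (0.485 to 0.588). Ndufa4 was the highest complex I gene by name in both small intestinal libraries, while in the large intestine several others lay above it, among them Ndufa3 at 395 FPKM. Its paralogue Ndufa4l2 was listed at 0 in the large and upper libraries and at 0.111 FPKM in the lower.

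Ndufs5, an accessory subunit, was listed at 0.005 FPKM in both the large and upper libraries and at 12.6 FPKM in the lower. It was the only gene of the 83 under 1 FPKM in some library and over 10 FPKM in another. A value of 0.005 for a subunit gene in 2 libraries can be a failed estimate, so its place past 2-fold is given as listed and no fold is drawn from it. Without it no gene was past 2-fold lower in the large or in the upper against the lower library.

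Complex II, succinate dehydrogenase, links the tricarboxylic acid cycle to the chain and is wholly encoded in the nucleus. All 4 genes were highest in the upper small intestine, under every scaling tried, against 29.4% of all genes as deposited. Sdha, the flavoprotein, was at 211 FPKM in the large, 285 in the upper and 203 in the lower intestine. Sdhb, the iron-sulfur subunit, was at 237 FPKM in the large, 358 in the upper and 216 in the lower intestine, an upper to lower ratio of 1.66 (1.57 to 1.75) and a large to upper ratio of 0.664 (0.627 to 0.704). The membrane anchors followed, Sdhc at 148 FPKM in the large, 226 in the upper and 158 in the lower library, and Sdhd at 256 in the large, 364 in the upper and 236 in the lower. As deposited, the large and lower libraries lay within 0.14 of each other on the log2 scale for each of these genes, and the upper one stood above both. After rescaling to the same sum the large library stood above the lower by 0.36 for Sdha, 0.45 for Sdhb, 0.21 for Sdhc and 0.43 for Sdhd.

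In complex III, which hands electrons from ubiquinol to cytochrome c, the genes split. Uqcrc1, a core protein, was at 206 FPKM in the large, 347 in the upper and 233 in the lower intestine, with a large to upper ratio of 0.594 (0.566 to 0.624). Uqcrq and Uqcr11, small subunits, had the same order, Uqcrq at 373 FPKM in the large, 561 in the upper and 426 in the lower library and Uqcr11 at 449.7 in the large, 611 in the upper and 474 in the lower. Uqcrb, the ubiquinone-binding protein by name, was the reverse for the large intestine, at 725 FPKM in the large, 546 in the upper and 473 in the lower. Uqcrh, the hinge protein by cytochrome c1, was at 949 FPKM in the large, 834 in the upper and 635 in the lower, and Uqcr10 at 628 in the large, 578 in the upper and 427 in the lower. Uqcrfs1, the Rieske iron-sulfur protein, lay between, at 233 FPKM in the large, 266 in the upper and 188 in the lower library. Thus 3 of 8 genes were highest in the large intestine and 5 in the upper small intestine as deposited, against 41.3% and 29.4% of all genes.

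Complex IV, cytochrome c oxidase, reduces oxygen to water. Its nuclear subunits surround a core made from mitochondrial DNA. Cox5a was at 673 FPKM in the large, 580.3 in the upper and 472 in the lower intestine, and Cox5b at 799 in the large, 722 in the upper and 557 in the lower. Cox6a1 was at 1086 FPKM in the large, 954 in the upper and 705 in the lower, and Cox8a at 963 in the large, 838 in the upper and 664 in the lower. These 4 structural subunits shared the order large, upper, lower, and their large to lower ratios lay between 1.43 and 1.54. Cox6b1, on average the most abundant of the 16 complex IV genes chosen by name, was instead highest in the upper small intestine as deposited, at 946 FPKM in the large, 1043 in the upper and 819 in the lower. Cox7a2l, whose product (SCAF1 in mouse) joins complexes III and IV into supercomplexes, was at 259.7 FPKM in the large, 175 in the upper and 168 in the lower. Its large to upper ratio was 1.48 (1.38 to 1.59) and its large to lower ratio 1.54 (1.45 to 1.65), while the upper to lower ratio of 1.04 (0.967 to 1.12) was within counting error.

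Cox7a1 was the one well-measured gene past 2-fold between the small intestinal libraries. It encodes an isoform of subunit 7a known best from heart and skeletal muscle (chromosome 7 at 30184144 to 30186078, plus strand). It was at 130 FPKM in the large, 306 in the upper and 107 in the lower intestine. The upper to lower ratio was 2.85 (2.45 to 3.33), the large to upper ratio 0.425 (0.363 to 0.497) and the large to lower ratio 1.21 (1.01 to 1.45). Its partner isoform Cox7a2, used in most tissues, was at 372 FPKM in the large, 377 in the upper and 297 in the lower library. Cox7a1 thus made up 25.9% of the FPKM of the pair in the large, 44.8% in the upper and 26.5% in the lower intestine.

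The other isoforms known from muscle were at or near 0. Cox6a2 was at 0.484 FPKM in the large, 1.11 in the upper and 0.186 in the lower library, and Cox8b at 1.40 in the large library and at 0 in the others. Cox8b passed 2-fold in the large intestine on about 2 implied reads. Among 9 muscle markers only Tagln and Acta1 reached 1 FPKM, in all 3 libraries, and their list summed to 59.3 FPKM in the large, 26.1 in the upper and 46.5 in the lower intestine. Des, Actg2 and Myh6 were listed at 0 in the large and upper libraries, and Myh11, Ckm, Acta2 and Cnn1 were at or near 0 in every library. Most of the marker sum was Acta1, at 51.4 FPKM in the large, 24.3 in the upper and 43.6 in the lower library. Ckm was at 0.104 FPKM in the upper library and listed at 0 in the others. The part of muscle cells in the level of Cox7a1 was not tested. Of isoforms known from testis, Cox7b2 and Cox8c were listed at 0 in all libraries, and Cox6b2 was at 8.10 FPKM in the large, 7.48 in the upper and 11.8 in the lower library.

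**Figure D4:**
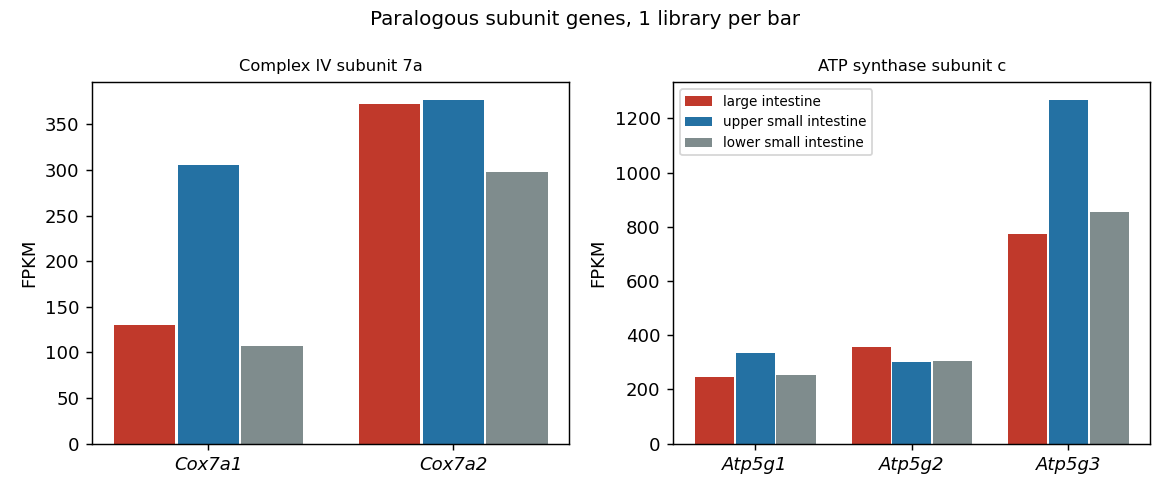
Bars give FPKM of the 2 subunit 7a genes of complex IV and the 3 subunit c genes of ATP synthase in the large, upper and lower library, 1 library per bar with no error. Cox7a1 at 306 FPKM in the upper library stands above its level in the others while Cox7a2 is between 297 and 377 FPKM, and Atp5g3 is the highest subunit c gene in each library.

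ATP synthase joins a catalytic head to a rotor and stator in the membrane. Atp5b, the catalytic beta subunit, was at 1114 FPKM in the large, 1505 in the upper and 1156 in the lower intestine, and Atp5a1, the alpha subunit, at 733 in the large, 916 in the upper and 712 in the lower. Of the 17 genes 15 were highest in the upper small intestine as deposited, against 29.4% of all genes. After rescaling to the same sum 9 of 17 were higher in the large than in the upper, where 72.7% of all genes were. The 5 genes of the catalytic head had a median upper minus lower difference of 0.38, within 0.36 to 0.41, and the 7 of the membrane part and stator 0.50, within 0.29 to 0.58. All 12 were higher in the upper than in the lower library, against 46.1% of all genes. The membrane subunits Atp5k (subunit e) and Atp5j2 (subunit f) were both highest in the upper library, Atp5k at 1080 FPKM in the large, 1539 in the upper and 1032 in the lower library and Atp5j2 at 395 in the large, 611 in the upper and 417 in the lower. Atp5o, of the stator, was at 504 FPKM in the large, 756 in the upper and 533 in the lower. Between the large and lower libraries the median of the 17 genes was 0.06 as deposited, with 11 higher and 6 lower, against 50% of all genes each way. After rescaling to the same sum all 17 were higher in the large library, against 68.9% of all genes, and the median was 0.37.

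Subunit c, which forms the rotor ring, is made from Atp5g1, Atp5g2 and Atp5g3, whose mature proteins are identical and whose import sequences differ. Atp5g3 was at 774 FPKM in the large, 1270.0 in the upper and 854 in the lower intestine, with a large to upper ratio of 0.609 (0.584 to 0.636) and an upper to lower ratio of 1.49 (1.43 to 1.54). Atp5g1 was at 246 FPKM in the large, 333 in the upper and 255 in the lower. Atp5g2 did not share this order, at 356 FPKM in the large, 300.5 in the upper and 304 in the lower library, with an upper to lower ratio of 0.989 (0.890 to 1.10). Atp5g3 held 56.2% of the FPKM of the 3 genes in the large, 66.7% in the upper and 60.5% in the lower intestine. Atp5g2 and Atp5h have near-identical copies among annotated genes, so reads may be shared and their values are less certain. Atp5g2, Atp5o, Ndufb2, Ndufb8 and Ndufb9 overlap an exon of another gene on the same strand, which strand cannot resolve. Atp5a1, Atp5o, Cox5a, Cox6a2, Ndufa3, Ndufa4l2 and Uqcrb are among 26 of the 83 genes that overlap an exon on the opposite strand. Its reads cannot be told apart if strand was not used in counting.

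The lowest genes named Atp5 are not structural subunits. Atp5s, coupling factor B, was at 8.88 FPKM in the large, 5.90 in the upper and 5.92 in the lower library. Atp5sl, now Dmac2 and known in human cells as an assembly factor of the complex I membrane arm, was at 34.7 FPKM in the large, 36.9 in the upper and 23.3 in the lower.

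Chain genes outside the names used here, with factors bound to the complexes, formed a further list. All 7 of the 7 measured were higher in the upper than in the lower small intestine, against 46.1% of all genes, and their median was 0.43. Cyc1, cytochrome c1 of complex III, was at 255 FPKM in the large, 380.4 in the upper and 281 in the lower intestine, and Cycs, cytochrome c, at 114 in the large, 199 in the upper and 164 in the lower. Cox4i1, a complex IV subunit, was at 1280.3 FPKM in the large, 1098 in the upper and 926 in the lower, the order of Cox5a and Cox5b. Atpif1, the inhibitor of ATP synthase, was at 112 FPKM in the large, 210 in the upper and 145 in the lower, and Usmg5, a small ATP synthase subunit, at 612 in the large, 996 in the upper and 680 in the lower. Higd1a, a hypoxia-inducible inner membrane protein, was past 2-fold in the large intestine in both comparisons, at 101 FPKM in the large, 27.3 in the upper and 17.2 in the lower. Its relative Higd2a, a factor of complex IV, was at 257 FPKM in the large, 176 in the upper and 169.99 in the lower. Cox4i2 was listed at 0 in the large and upper libraries and at 0.324 FPKM in the lower.

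Assembly factors of the complexes differed less between the small intestinal libraries. Set against the lower library, 36 of 49 stood higher in the upper one and 13 lower, against 46.1% and 53.9% of all genes. The median of the assembly factors was 0.16, less than the 0.38 of the subunits. Past 2-fold were Sco2, which delivers copper to complex IV, at 15.0 FPKM in the large, 67.2 in the upper and 23.0 in the lower, and Pet117, at 6.26 in the large, 10.4 in the upper and listed at 0 in the lower. As with Ndufs5, the value of 0 can be a failed estimate, and no fold is drawn from it. Surf1, needed for complex IV assembly, was higher in the large intestine at 61.0 FPKM in the large, 25.9 in the upper and 28.8 in the lower. Coa7 was at 3.72 FPKM in the large, 9.22 in the upper and 5.98 in the lower. Ecsit, an assembly factor of complex I, was at 15.8 FPKM in the large, 26.6 in the upper and 17.8 in the lower, and Lyrm7, of complex III, at 2.32 in the large, 1.27 in the upper and 1.11 in the lower.

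The tricarboxylic acid cycle and pyruvate entry genes, which feed the chain, had a median close to that of the subunits between the small intestinal libraries. Of 20 genes 18 were higher in the upper than in the lower small intestine, against 46.1% of all genes, and the median of the 20 was 0.37. As deposited 14 of the 20 stood lower in the large library against the upper one, where 50% of all genes did. Past 2-fold were 4 lower and 1 the other way, against 11.7% and 11.2% of all genes. Mdh2, malate dehydrogenase, was at 279 FPKM in the large, 1116 in the upper and 553 in the lower intestine. Ogdh, of the oxoglutarate dehydrogenase complex, was at 79.1 FPKM in the large, 192 in the upper and 118 in the lower. The 2 alternative subunits of succinyl-CoA ligase differed between the large and upper libraries in opposite directions, Sucla2 at 52.8 FPKM in the large, 115 in the upper and 77.05 in the lower and Suclg2 at 113 in the large, 54.1 in the upper and 55.5 in the lower. Dlat, of pyruvate dehydrogenase, was at 24.5 FPKM in the large, 30.3 in the upper and 12.8 in the lower, and Dlst, the partner of Ogdh, at 88.8 in the large, 192 in the upper and 118 in the lower.

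Among other routes of electrons to ubiquinone, several genes differed by a large factor. Of 10 measured in the large against the upper library, 1 was past 2-fold higher and 3 lower, against 11.2% and 11.7% of all genes, and 1 of the 3, Prodh2, was barely detected. Sqrdl, sulfide quinone oxidoreductase, was at 304.6 FPKM in the large, 52.7 in the upper and 51.3 in the lower intestine. Gpd2, mitochondrial glycerol phosphate dehydrogenase, was at 14.1 FPKM in the large, 66.7 in the upper and 40.6 in the lower, and Prodh, proline dehydrogenase, at 7.51 in the large, 28.9 in the upper and 40.4 in the lower. Suox, sulfite oxidase, which passes electrons to cytochrome c instead, was at 6.16 FPKM in the large, 4.28 in the upper and 118 in the lower. Prodh2 was at 1.01 FPKM in the upper library and listed at 0 in the others.

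On the log2(FPKM + 1) scale 0 of 15 measured regulators of mitochondrial biogenesis passed 2-fold in any comparison, where 2.92% to 11.7% of all genes did in a given direction. This rests on the pseudocount, since plain FPKM ratios were 2.10 for Ppargc1b in large against lower, and 2.10 for Ppargc1a and 2.31 for Esrrg in upper against lower. Ppargc1a, the coactivator PGC-1 alpha, was at 14.0 FPKM in the large, 18.6 in the upper and 8.85 in the lower intestine, and Ppargc1b at 15.0 in the large, 9.35 in the upper and 7.16 in the lower. The receptors Esrra and Esrrg were highest in the upper library, Esrra at 66.9 FPKM in the large, 116 in the upper and 80.1 in the lower and Esrrg at 2.66 in the large, 4.24 in the upper and 1.84 in the lower. Pprc1, related to the coactivator, was at 6.28 FPKM in the large, 9.52 in the upper and 10.9 in the lower. Of 9 measured carrier and channel genes, Ckmt1, mitochondrial creatine kinase, was at 1456 FPKM in the large, 1337 in the upper and 518 in the lower, and Vdac3, an outer membrane channel, at 228 in the large, 100.01 in the upper and 94.9 in the lower. Slc25a5, the main ADP/ATP carrier gene here, was at 1241 FPKM in the large, 1696 in the upper and 1281 in the lower, and its relative Slc25a4 at 14.1 in the large, 11.6 in the upper and 20.97 in the lower. Ucp2, of the uncoupling protein family, was at 408 FPKM in the large, 414 in the upper and 286 in the lower. Against the upper library, 5 of 16 glycolysis genes were past 2-fold higher in the large intestine and 3 past 2-fold lower, against 11.2% and 11.7% of all genes. Hk1, a hexokinase, was at 59.5 FPKM in the large, 2.06 in the upper and 4.46 in the lower. Pfkl, a phosphofructokinase, was at 64.7 FPKM in the large, 15.4 in the upper and 10.8 in the lower, and Ldhb, a lactate dehydrogenase subunit, at 4.68 in the large, 0.343 in the upper and 0.383 in the lower. Hk2 was lowest in the upper library, at 28.1 FPKM in the large, 8.75 in the upper and 35.1 in the lower, and Eno1, an enolase, was highest there, at 77.5 in the large, 169.7 in the upper and 66.8 in the lower.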

How the data were processed

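The authors deposited a single value per gene and library, which is read here as FPKM. No header names the unit; per the submitters' processing notes the one quantifier is Cufflinks 2.2.1, listed with TopHat2 2.0.13, Bowtie2 2.2.3, SAMtools 0.1.19 and mm10, without roles. Cells were released with EDTA and libraries made with a stranded mRNA kit, per the labels' protocols. The sources used here do not give the annotation, the strand setting or any scaling between libraries.

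Members and lists were chosen with earlier results of these data known. Differences were taken as log2(FPKM + 1), which understates those of low genes, and called by size at 2-fold with no test. Values in all libraries are given for the 3 largest differences per complex and comparison, the highest and lowest gene of each complex, paralogues, the Sdh genes and the 3 largest differences of each related list. Other genes with values (Ndufs8, Ndufv1, Ndufa3, Ndufa6, Ndufa7, Cox5a, Cox5b, Atp5a1, Cox4i1 and Cyc1), and the sets of ribosomal protein, proteasome, core and head genes, were chosen after their values were seen. A few genes that these rules name are not reported here.

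Reads were recovered from low values of genes with a lone transcript of 1000 nt or longer. FPKM times the transcript length less 190 nt lay within 0.15 read of whole multiples of 1 step for 80.0% of 521 genes in the large, 81.6% of 510 in the upper and 80.6% of 577 in the lower library. With nothing subtracted the shares were 65.4%, 66.5% and 67.3%. The tolerance alone would give 30%, but steps and offset were fitted to these same values. Recovery was too incomplete for a count test. Implied reads used the shortest protein-coding transcript, counted as at least 100 nt long after subtraction. Positions and lengths come from GENCODE M21 (GRCm38, the assembly of mm10), which matched 83 of 83 members. Near-identical genes (95% identity over 80% of a transcript) were found with blastn 2.17.0, and 26 members overlap an opposite-strand exon. Promoters come from RefSeq (GRCm38.p6). Python 3.11.15, pandas 2.3.3 and SciPy 1.17.1 were used, and the calling rule was tested on simulated data. Alternatives were another pseudocount, minimum, fold, scaling and transcript length, and leaving out doubtful genes.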

Additional observations from a re-analysis of the deposited data

How the results depend on the processing

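With 1 library per region no library could be left out. No paired analysis was possible because each region has 1 library. Of the values recomputed under other settings, 86 stayed within the limits set for them, 27 moved and 1 reversed. Rescaling each library to the same sum of FPKM gave a median difference of 0.50 for large against lower and 0.23 for large against upper, the second with its sign reversed. It put 4 genes past 2-fold higher for large against lower and 0 past 2-fold lower in the large than in the upper. Over all genes, those past 2-fold higher for large against lower went from 1207 as deposited to 1776. Those past 2-fold lower for large against upper went from 1441 to 996. The same rescaling made the large intestine highest for 55 of the subunit genes and the upper for 21. Leaving short RNA names and the 20 most abundant genes out of the sum made the large intestine highest for 33.

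Few genes passed 2-fold, so their counts moved easily. A pseudocount of 5 FPKM or a minimum of 10 FPKM left 1 gene higher for large against lower and 0 for large against upper, and a pseudocount of 0.1 FPKM gave 2 higher in the upper than in the lower. With a 1.5-fold rule, 8 genes were higher and 2 lower for large against lower, 8 were lower for large against upper, and 8 were higher and 2 lower for upper against lower. Restricted to transcripts of at least 600 nt, 0 genes passed 2-fold in either direction of any comparison, and the large intestine was highest for 7, the upper for 34 and the lower for 1. Without Ndufs5, a choice made after seeing the data, as was leaving out genes with near-identical copies, 0 genes were past 2-fold lower in the large or the upper against the lower library. The depth gave intervals within which low genes such as Cox8b and Cox6a2 cannot be placed, and differences between animals were not measured.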
